A study of Mus musculus with 6 samples.

Results

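The genes described here are 10 genes used to recognize tissue-resident macrophages: Lyve1, Folr2, Cd163, Vsig4, Marco, Slco2b1, F13a1, Cbr2, Rasgrp3 and Adgre1. They were chosen by symbol, through the mouse annotation GENCODE vM21, from the 21780 genes of the count table, and all 10 were found. All 10 passed the filter on low counts and were among the 14429 genes tested. The libraries were made from CD45+CD11b+ cells, a surface gate that takes myeloid cells of all kinds, sorted from the pancreas of young adult wild-type C57BL/6 mice of both sexes. The mice had received a single intraperitoneal injection 7 days earlier, either of PBS (3 libraries) or of WGP suspended in PBS (3 libraries). WGP are whole glucan particles, hollow yeast shells of β-1,3-glucan that phagocytes bind through the receptor Dectin-1. No mutant allele or other agent was part of either group. The sources used here do not give the sex of the animal behind each library. P-values measure the spread between these libraries.

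Macrophages that settle in a tissue early and renew there carry sets of uptake receptors and enzymes that newly arrived monocytes lack or hold at low levels. Lyve1, Folr2 and Cd163 are often found together on macrophages that lie along vessels and in connective tissue, and Vsig4 and Marco are also known from macrophages that clear particles from blood and body cavities. Adgre1, which encodes F4/80, is a general marker of mature mouse macrophages and is also acquired by monocytes as they differentiate. In RNA from a bulk sort, fewer cells of a type and less RNA per cell cannot be told apart.

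Total counts lay between 35334645 and 43341834 per library. The genes of the gate were detected in every library, with Ptprc (CD45) at 949 to 1043 CPM (read counts scaled to library size, with TMM factors) in PBS and 1536 to 1747 in WGP, and Itgam (CD11b) at 189 to 254 and 379 to 418. Several libraries stood apart. Counts of Y-linked genes were present in PBS replicates 2 and 3 and were 0 or 1 in the other 4 libraries. A fit with their presence as a covariate therefore compares the WGP libraries with PBS replicate 1 alone, and its calls rest on that 1 PBS library. PBS replicate 1 had the highest summed level of 4 B cell markers (2082 CPM, against 533 and 305 in the other PBS libraries and 70.1 to 136 in WGP) and of 7 neutrophil markers (3730 CPM, against 1247 to 2038 elsewhere). S100a9 (1583 CPM) and S100a8 (1281 CPM) made up most of that neutrophil sum, and 2 other neutrophil markers were higher in each WGP library than in each PBS library. PBS replicate 2 had the highest sum of 7 acinar cell markers (3999 CPM, against 1629 and 1073 in PBS and 266 to 451 in WGP). WGP replicate 2 had the highest sum of 5 fibroblast markers (1030 CPM, against 21.9 to 101 elsewhere). The 10 resident genes summed to 4264, 8182 and 10709 CPM in PBS replicates 1, 2 and 3 and to 1143, 1490 and 1408 CPM in the WGP replicates.

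**Figure D1:**
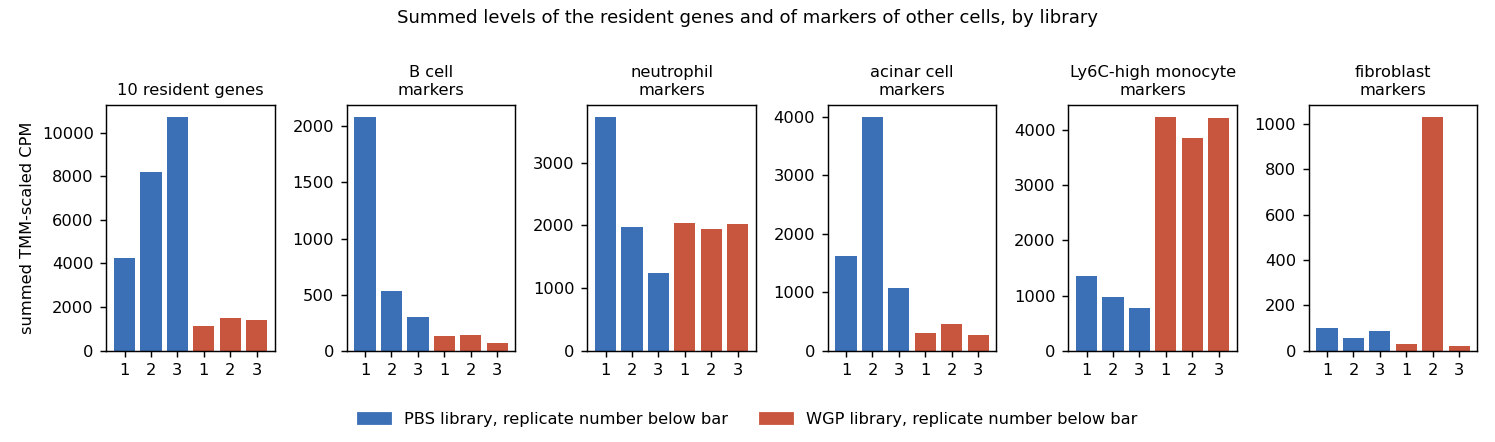
Summed TMM-scaled CPM (vertical axes, linear, a separate scale in each panel) of the 10 resident genes and of 5 marker lists of other cells, 1 bar per library with the replicate number below it. The sum of the resident genes was lower in each WGP library than in each PBS library. The sums of B cell and neutrophil markers were highest in PBS replicate 1, that of acinar markers in PBS replicate 2 and that of fibroblast markers in WGP replicate 2.

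RefSeq promoter sequence of the files' build (GRCm38.p6) was held for 8 of the 10 genes, and Lyve1 and Adgre1 were not among them. The 250 bases before the start site were searched on both strands for 5 short motifs of factors that act in myeloid cells or in inflammation. GAGGAAG, a core of sites for PU.1, the factor that establishes the myeloid lineage, was in 4 of the 8 windows, and 10.6% of all 32851 windows of the same length held it. TGCTGA, a half-site of MAF factors, was in 1 of 8 (16.1% of all windows). The letters of AP-1 (TGANTCA, 6.75%), C/EBP (TTGCNNAA, 9.56%) and the E-box (CACGTG, 6.02%) were in none of these windows. The sequences that follow are the 4 windows with GAGGAAG, shown because 3 of these genes were lower in WGP while Marco was higher, and that of Folr2, which holds the MAF half-site. They are written 5′ to 3′ along the gene's strand, and capitals mark GAGGAAG, or TGCTGA in Folr2. A match of letters is a description of the sequence only.
Marco, chr1:120505025-120505274, minus strand: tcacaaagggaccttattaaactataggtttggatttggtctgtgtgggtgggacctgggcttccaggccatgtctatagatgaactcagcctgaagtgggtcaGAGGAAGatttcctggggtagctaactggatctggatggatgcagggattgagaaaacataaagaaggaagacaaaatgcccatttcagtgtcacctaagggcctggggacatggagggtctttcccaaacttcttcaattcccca
F13a1, chr13:37050245-37050494, minus strand: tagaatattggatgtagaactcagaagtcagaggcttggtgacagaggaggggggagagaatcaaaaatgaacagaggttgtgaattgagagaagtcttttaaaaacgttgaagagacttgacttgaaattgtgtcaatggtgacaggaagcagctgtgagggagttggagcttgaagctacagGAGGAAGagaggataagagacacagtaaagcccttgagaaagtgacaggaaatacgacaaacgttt
Cbr2, chr11:120732022-120732271, minus strand: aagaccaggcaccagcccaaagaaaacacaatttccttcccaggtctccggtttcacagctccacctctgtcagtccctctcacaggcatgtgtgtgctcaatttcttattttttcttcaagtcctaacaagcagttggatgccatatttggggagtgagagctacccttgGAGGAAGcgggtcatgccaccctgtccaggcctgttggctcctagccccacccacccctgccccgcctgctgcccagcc
Rasgrp3, chr17:75435655-75435904, plus strand: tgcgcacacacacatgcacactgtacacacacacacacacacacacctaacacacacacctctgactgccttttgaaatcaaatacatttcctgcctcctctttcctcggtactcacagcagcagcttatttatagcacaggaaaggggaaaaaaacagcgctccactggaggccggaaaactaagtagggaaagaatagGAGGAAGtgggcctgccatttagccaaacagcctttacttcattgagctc
Folr2, chr7:101857191-101857440, minus strand: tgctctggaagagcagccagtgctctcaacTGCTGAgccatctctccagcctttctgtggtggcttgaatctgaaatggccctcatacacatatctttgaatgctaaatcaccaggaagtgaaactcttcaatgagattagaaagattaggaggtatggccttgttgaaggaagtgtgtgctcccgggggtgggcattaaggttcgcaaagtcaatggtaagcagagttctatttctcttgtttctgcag

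The first comparison asks which of the 10 genes differ between WGP and PBS. A gene was called when it passed the edgeR quasi-likelihood test at 0.05, after Benjamini-Hochberg adjustment over all genes tested, with a log2 fold change of 1 or more in either direction. In WGP 8 of the 10 genes fell, 1 (Marco) rose and 1 (Adgre1) did not pass. Over all genes tested 4.96% were called lower and 4.53% higher, 9.49% in all, and by adjusted p alone 6.81% were lower and 7.54% higher. The 3 WGP and 3 PBS libraries did not overlap for 9 of the 10 genes, against 32.0% of all genes tested. The median log2 fold change was -3.84 over the 10 genes and -0.05 over all genes tested. An exact two-sided permutation test of the levels of 1 gene cannot go below p = 0.1 with 3 against 3 libraries, and it gave 0.1 for those 9 genes and 0.4 for Adgre1.

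**Figure D2:**
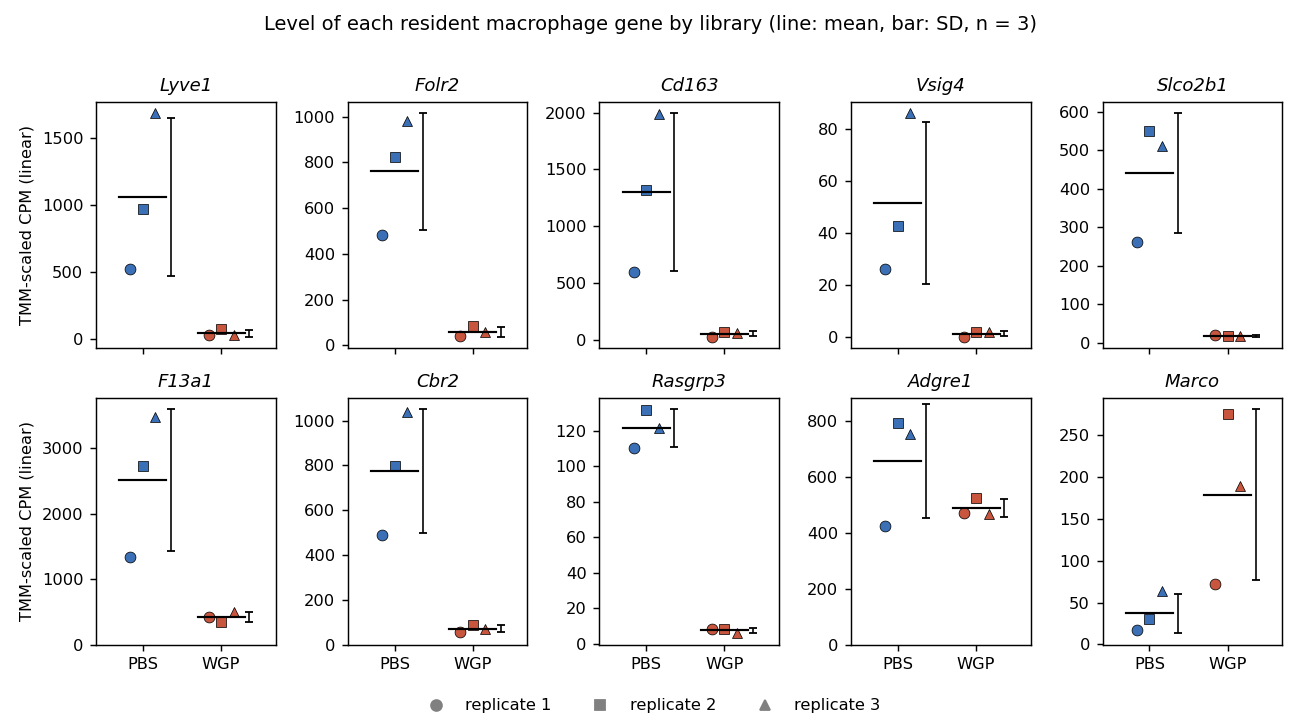
TMM-scaled CPM (vertical axes, linear, a separate scale in each panel) of each gene in the 3 PBS and 3 WGP libraries, with circles, squares and triangles for replicates 1, 2 and 3, a line at the mean and a bar of 1 SD (n = 3). The WGP points lay below all PBS points in 8 panels, overlapped with them for Adgre1 and lay above them for Marco.

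Of the uptake receptors, Lyve1 (ENSMUSG00000030787, chr7:110850607-110863239, minus strand) encodes a receptor for hyaluronan. Lyve1 stood at 520, 968 and 1687 CPM in PBS replicates 1, 2 and 3 and at 24.2, 72.0 and 29.0 CPM in the WGP replicates. Even the highest WGP library was far below the lowest PBS library. The log2 fold change was -4.66 ± 0.53 (SE, n = 3 per group, edgeR adjusted p = 0.000266), so that Lyve1 was 25.4-fold lower. It was -5.31 without WGP replicate 2 and -3.64 with the covariate for Y-linked counts. Lyve1 is also a gene of lymphatic endothelium. The summed level of 4 lymphatic endothelial markers was 4.90 to 5.72 CPM in PBS and 5.13 to 18.4 CPM in WGP, with Ccl21a at 0 in every library, but its members went opposite ways. Prox1, the defining factor of these cells, was at 4.11, 3.62 and 3.86 CPM in PBS and at 0.46, 0.75 and 0 CPM in WGP (edgeR adjusted p = 0.196), whereas Pdpn was at 0.64 to 1.30 and 4.89 to 15.7 CPM. The part of these cells in the result was not tested.

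Folr2 (ENSMUSG00000032725, chr7:101839988-101857194, minus strand) encodes folate receptor beta. Folr2 was at 481, 822 and 981 CPM in PBS and at 39.0, 82.9 and 57.0 CPM in WGP. The groups were again well apart, and the spread between replicates was smaller than for Lyve1. This gave a log2 fold change of -3.67 ± 0.33 (SE, edgeR adjusted p = 6.68e-05), and -3.01 with the covariate for Y-linked counts. An antisense gene, Gm10602, shares 975 exon bases with Folr2, and the strand setting of the counting is not given in the sources used here.

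Cd163 (ENSMUSG00000008845, chr6:124304656-124330527, plus strand) encodes the scavenger receptor for complexes of haemoglobin and haptoglobin. Cd163 was at 602, 1320 and 1990 CPM in PBS and at 31.3, 73.8 and 67.6 CPM in WGP. The PBS libraries spread over 3.31-fold, yet the lowest was several times the highest WGP library. Its log2 fold change was -4.50 ± 0.47 (SE, edgeR adjusted p = 0.000153), and -3.38 with the covariate for Y-linked counts.

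Vsig4 (ENSMUSG00000044206, chrX:96247203-96293438, minus strand) encodes a complement receptor of the immunoglobulin superfamily. Vsig4 was at 25.9, 42.4 and 86.2 CPM in PBS and at 0, 1.69 and 1.83 CPM in WGP. The WGP values rest on 0, 70 and 75 counts. The count of 0 allows a level of up to 0.0814 CPM at 3 counts, or 1.47 CPM when 3 counts are multiplied by the most frequent low count of that library (18 reads); both limits cover counting error only. The log2 fold change was -5.44 ± 0.95 (SE, edgeR adjusted p = 0.0035), the largest and least precise of the 8 falls. It was -4.85 without PBS replicate 3, still called, and -4.45 with the covariate for Y-linked counts. Limma-voom did not call Vsig4 (log2 fold change -6.99, adjusted p = 0.0666).

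Marco (ENSMUSG00000026390, chr1:120474538-120505024, minus strand) encodes a class A scavenger receptor that binds bacteria and unopsonized particles, and it was the 1 uptake receptor that rose. Marco was at 17.4, 30.2 and 63.4 CPM in PBS and at 71.8, 275 and 189 CPM in WGP. The lowest WGP library was only just above the highest PBS library. The log2 fold change was 2.27 ± 0.52 (SE, edgeR adjusted p = 0.015), a mean 4.83-fold higher. Without PBS replicate 2 Marco was no longer called (log2 fold change 2.15, edgeR adjusted p = 0.0736), while it was called with 2.91 without PBS replicate 3. The log2 fold change was 3.36 in the fit with the covariate for Y-linked counts, which rests on PBS replicate 1, the lowest library for Marco. The highest library, WGP replicate 2, was also the one with the high fibroblast sum, and the part of that in the result was not tested.

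Slco2b1 (ENSMUSG00000030737, chr7:99657804-99711340, minus strand) encodes a transporter of organic anions. Slco2b1 was at 261, 550 and 512 CPM in PBS and at 20.4, 16.4 and 16.7 CPM in WGP, where the replicates lay within 1.25-fold of each other. Slco2b1 had a log2 fold change of -4.63 ± 0.29 (SE, edgeR adjusted p = 1.19e-05), and -3.87 with the covariate for Y-linked counts. The antisense genes Gm15635 and Gm34280 share 471 and 78 exon bases with Slco2b1.

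F13a1 (ENSMUSG00000039109, chr13:36867178-37050244, minus strand) encodes the A subunit of coagulation factor XIII, which cross-links fibrin, and is made by macrophages, monocytes and megakaryocytes. F13a1 was at 1335, 2728 and 3474 CPM in PBS and at 422, 347 and 503 CPM in WGP. It fell in all 3 WGP libraries below the lowest PBS library, and its estimated fall was the smallest of the 8. The log2 fold change was -2.57 ± 0.32 (SE, edgeR adjusted p = 0.000411), leaving 16.9% of the PBS mean. With the covariate for Y-linked counts it was -1.66. The summed level of 5 platelet and megakaryocyte markers was 2.45 to 3.59 CPM in PBS and 1.66 to 4.35 CPM in WGP, with Gp9 and Gp1bb at 0 in every library. Within it Ppbp was at 1.12, 2.52 and 2.03 CPM in PBS and at 0.27, 0 and 0 CPM in WGP (edgeR adjusted p = 0.278), while Treml1 was at 0 in PBS and at 0, 0.48 and 3.10 CPM in WGP. The part of these cells in the result was not tested. The antisense gene Gm30489 shares 74 exon bases with F13a1.

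Cbr2 (ENSMUSG00000025150, chr11:120729489-120732114, minus strand) encodes a carbonyl reductase. Cbr2 was at 488, 796 and 1038 CPM in PBS and at 55.8, 87.0 and 69.0 CPM in WGP. The groups did not overlap, and the log2 fold change was -3.45 ± 0.29 (SE, edgeR adjusted p = 4.16e-05), and -2.79 with the covariate for Y-linked counts.

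Rasgrp3 (ENSMUSG00000071042, chr17:75435896-75529054, plus strand) encodes an exchange factor that activates Ras and Rap1, and it is also expressed by B cells. Rasgrp3 was at 111, 132 and 122 CPM in PBS and at 8.49, 8.27 and 5.94 CPM in WGP. Its PBS libraries lay within 1.19-fold of each other, the narrowest range of the 10 genes in PBS, and its WGP libraries within 1.43-fold. Rasgrp3 had a log2 fold change of -4.00 ± 0.21 (SE, edgeR adjusted p = 4.86e-06). B cell markers were also lower in WGP (4 of 4 called lower, with Cd79a at 315 ± 323 CPM in PBS and 32.4 ± 7.34 CPM in WGP, SD, n = 3), and their part in the result was not tested.

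Adgre1 (ENSMUSG00000004730, chr17:57358691-57483527, plus strand) encodes F4/80, an adhesion G protein-coupled receptor. Adgre1 was at 423, 793 and 756 CPM in PBS and at 470, 526 and 469 CPM in WGP. All WGP libraries lay between PBS replicate 1 and the other PBS libraries, so the groups overlapped. Its log2 fold change was -0.43 ± 0.22 (SE, edgeR adjusted p = 0.263), so Adgre1 was not called. Its value depended on PBS replicate 1: without that library it was -0.67 with an adjusted p of 0.00539, still under the fold threshold, and in the fit with the covariate for Y-linked counts its sign turned (0.21, adjusted p = 0.51).

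**Figure D3:**
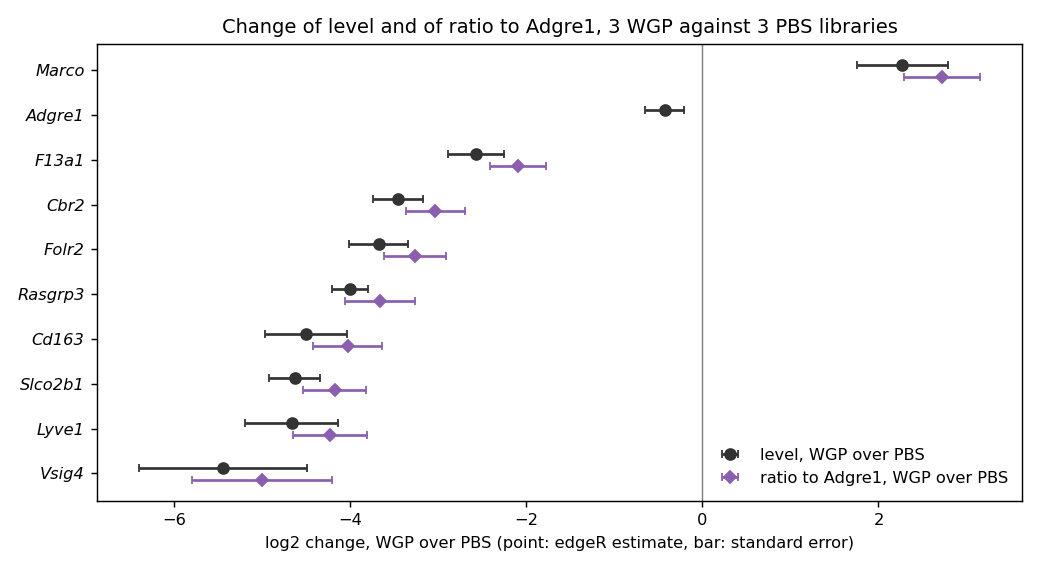
Log2 change from PBS to WGP (horizontal axis) of the level of each gene (circles) and of its ratio to Adgre1 within a library (diamonds), with bars of 1 standard error from edgeR. The 8 falling genes run from -5.44 (Vsig4) to -2.57 (F13a1) in level, and Marco lies on the other side of 0 on both measures.

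The genes differed in level to start with. Per kilobase of exon, which allows levels of different genes to be compared, Cbr2 was highest in PBS (583 CPM per kb), followed by Folr2 (493), F13a1 (373), Lyve1 (363), Cd163 (239), Adgre1 (203), Slco2b1 (74.0), Vsig4 (34.7), Rasgrp3 (20.8) and Marco (19.2). The PBS libraries of neighbors in this order overlapped, except for the step from Adgre1 to Slco2b1. In WGP the order was Adgre1 (151 CPM per kb), Marco (92.8), F13a1 (62.9), Cbr2 (53.2), Folr2 (38.6), Lyve1 (14.3), Cd163 (10.5), Slco2b1 (2.99), Rasgrp3 (1.30) and Vsig4 (0.79). The WGP libraries of the 2 genes did not overlap at the steps from Adgre1 to Marco, from Folr2 to Lyve1, from Cd163 to Slco2b1 and from Slco2b1 to Rasgrp3, and they overlapped at the others. Marco thus moved from the last place to the second, and Adgre1 from the sixth to the first.

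The second comparison asks whether the genes fell alike. If all transcripts of the list were diluted by 1 common factor, the ratio of any pair within a library would be the same in both groups, whatever the scaling. The levels that remained in WGP ran from 2.28% (Vsig4) to 16.9% (F13a1) of the PBS mean among the 8 falling genes, a 7.40-fold range, while Adgre1 kept 74.3% and Marco stood at 483%. The ratio of each gene to Adgre1 was tested over all genes with edgeR, with the Adgre1 count of a library in place of its size. All 9 ratios changed, 8 down and 1 up. Adgre1 itself changed by only -0.43 on the log2 scale and was not called, so these ratios largely restate the changes in level of the same genes. Over all genes tested 2.98% of ratios to Adgre1 were called lower and 6.18% higher, 9.16% in all. That balance depended on the PBS libraries used: the 430 genes lower and 892 higher became 393 and 2598 without PBS replicate 1, and 930 and 548 with the covariate for Y-linked counts. The ratio of Lyve1 to Adgre1 was 1.23, 1.22 and 2.23 in PBS and 0.0515, 0.137 and 0.0619 in WGP. That of F13a1 was 3.16, 3.44 and 4.60 in PBS and 0.899, 0.659 and 1.07 in WGP. That of Marco was 0.0410, 0.0380 and 0.0839 in PBS and 0.153, 0.524 and 0.403 in WGP. For these genes the WGP ratios lay entirely on 1 side of the PBS ratios, above them for Marco. The log2 changes of the ratio were -4.22 ± 0.42 for Lyve1 (SE, edgeR adjusted p = 2.46e-07), -2.09 ± 0.32 for F13a1 (adjusted p = 7.24e-05) and 2.73 ± 0.43 for Marco (adjusted p = 0.00011).

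Every gene was then used as the reference in turn, which gave 45 pairs. The within-library ratio differed without overlap between groups in 31 of 45 pairs, and 24 pairs were called with both genes as the reference. Over all pairs of tested genes 33.1% had ratios that did not overlap between the groups. Among the 28 pairs of the 8 falling genes 14 did not overlap, 7 were called with both references and 10 with at least 1. The share of all genes tested whose ratio was called was 77.8% with Lyve1 as the reference, 75.3% with Folr2, 77.0% with Cd163, 81.2% with Vsig4, 79.5% with Slco2b1, 66.0% with F13a1, 74.0% with Cbr2, 77.6% with Rasgrp3 and 25.7% with Marco. With so many genes called, the adjustment over genes weighs little on these p-values.

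All 10 of those pairs included F13a1 or Cbr2, the 2 genes with the smallest falls. F13a1 fell less than Lyve1, Folr2, Cd163, Vsig4, Slco2b1 and Rasgrp3, each with both references. Monocytes also make F13a1, and 6 of 8 markers of Ly6C-high monocytes rose in WGP. The part of monocytes in these ratios was not tested. The ratio of Slco2b1 to F13a1 was 0.196, 0.202 and 0.147 in PBS and 0.0483, 0.0472 and 0.0333 in WGP, a log2 change of -2.08 ± 0.52 (SE, edgeR adjusted p = 0.000156). The ratio of Rasgrp3 to F13a1 was 0.0827, 0.0483 and 0.0351 in PBS and 0.0201, 0.0239 and 0.0118 in WGP. B cells also express Rasgrp3, their markers were lower in WGP, and their part in this ratio was not tested. With Rasgrp3 as the reference, F13a1 rose relative to it by 1.52 ± 0.31 on the log2 scale (SE, edgeR adjusted p = 5.22e-05). The ratio of F13a1 to Cbr2 was separate between the groups, but its log2 change of 0.99 ± 0.42 (SE, edgeR adjusted p = 0.0267) with Cbr2 as the reference was just under the fold threshold, and with F13a1 as the reference the adjusted p was 0.108. Cbr2 fell less than Slco2b1 with both references, and less than Lyve1, Cd163 and Vsig4 with 1 of them. The call depended on single libraries. Between 3 and 8 of the 28 pairs were called with both references when 1 library was left out, with 3 without PBS replicate 2, and 4 were called with the covariate for Y-linked counts.

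The other 6 falling genes, Lyve1, Folr2, Cd163, Vsig4, Slco2b1 and Rasgrp3, form 15 pairs. The difference between the groups' mean log2 ratios, computed after adding 0.5 CPM to each level, ran in size from 0.10 to 1.41, with a median of 0.59, and 3 of the 15 pairs did not overlap between the groups. The ratio of Cd163 to Slco2b1 had the smallest difference of means (0.10), and Vsig4 to Folr2 had the largest (1.41). The size of the latter is set by the added constant, since Vsig4 is at 0 in WGP replicate 1, and the edgeR change of the same ratio was -1.87 ± 0.97 with Folr2 as the reference (SE, adjusted p = 0.0699). With Vsig4 as the reference, Folr2 rose relative to it by 5.90 ± 3.14 in edgeR (SE, adjusted p = 0.0711), so the size is poorly determined. In the edgeR fit with Slco2b1 as the reference, Folr2 rose relative to it by 0.98 ± 0.40 on the log2 scale (SE, adjusted p = 0.0211), just under the fold threshold, whereas with Folr2 as the reference the adjusted p was 0.182. The edgeR change of the ratio of Lyve1 to Slco2b1 was 0.06 ± 0.41 (SE, adjusted p = 0.896). A pair that was not called is not shown to have fallen by the same factor.

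**Figure D4:**
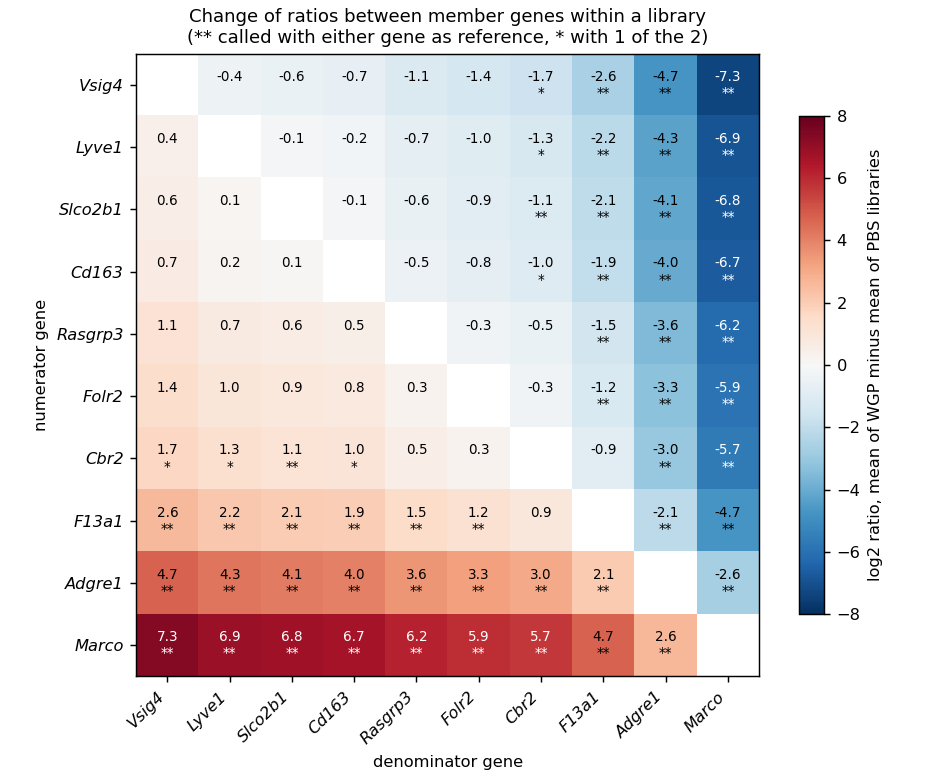
Change of the log2 ratio of each pair of genes within a library (mean of 3 WGP minus mean of 3 PBS libraries, after adding 0.5 CPM), with the numerator on the vertical and the denominator on the horizontal axis, blue where the numerator fell more and red where it fell less or rose. The block of the 6 genes from Vsig4 to Folr2 holds no marked pair, whereas F13a1, Adgre1 and Marco differ from nearly every other gene.

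The PBS libraries differed among themselves in the same genes. PBS replicate 1 was the lowest of the 3 PBS libraries for 10 of 10 genes, and PBS replicate 3 was the highest for 7. From replicate 1 to replicate 3 the levels differed 3.66-fold for Marco, 3.32-fold for Vsig4, 3.31-fold for Cd163, 3.24-fold for Lyve1, 2.13-fold for Cbr2, 1.79-fold for Adgre1 and 1.10-fold for Rasgrp3. The order of the PBS libraries in the sum of the resident genes was the opposite of their order in B cell and neutrophil markers, and the part of these in the spread was not tested. Among the WGP libraries replicate 2 was the highest for 6 of 10 genes. The 8 falling genes were called lower in the full set and in each fit that left out 1 library.

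Other genes of resident macrophages, from a list of 20, were mostly lower as well: 18 of 20 fell and none rose, with a median log2 fold change of -3.45, and 15 fell in the fit with the covariate for Y-linked counts. The most abundant was Selenop, a selenium transport protein, at 5622 ± 2074 CPM in PBS and 1035 ± 89.9 CPM in WGP (SD, n = 3), a log2 fold change of -2.44 ± 0.27 (SE, edgeR adjusted p = 0.000212). Stab1, a scavenger receptor, changed by -2.62 ± 0.30 (adjusted p = 0.000271) and Mrc1, the mannose receptor CD206, by -2.91 ± 0.31 (adjusted p = 0.000165). The 2 genes that did not pass were Ccl8, a chemokine (37.1 ± 8.01 CPM in PBS, 55.9 ± 30.4 in WGP), and Cd5l, a scavenger receptor family protein (13.6 ± 11.1 and 45.5 ± 32.5 CPM), and both overlapped between the groups. Maf, which encodes a transcription factor of resident macrophages, was 2.96-fold lower (log2 fold change -1.56 ± 0.24 SE, edgeR adjusted p = 0.00179). Ccl8, Cd5l and Maf were chosen after their values were seen.

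Core macrophage genes, which macrophages of any origin express, did not share this direction: of 14 genes 2 fell, 3 rose and 9 did not pass, with a median log2 fold change of 0.00 after rounding. Csf1r, the receptor for the growth factor that macrophages depend on, was at 3367 ± 1187 CPM in PBS and 2713 ± 117 CPM in WGP (SD, n = 3; log2 fold change -0.31 ± 0.25 SE, edgeR adjusted p = 0.456). C1qa, a chain of complement C1q, fell by 1.34 on the log2 scale (adjusted p = 0.00578), and Lyz2, lysozyme, rose by 1.21 (adjusted p = 0.00351). By adjusted p alone 3 of the 14 were lower and 5 higher.

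Of 8 markers of Ly6C-high monocytes, 6 rose and none fell, with a median log2 fold change of 2.04. Their summed level was 766 to 1361 CPM in PBS and 3845 to 4231 CPM in WGP. Ccr2, the chemokine receptor by which these monocytes leave the marrow, changed by 1.98 ± 0.24 (SE, edgeR adjusted p = 0.000349), Plac8 by 2.09 ± 0.39 (adjusted p = 0.005) and Ly6c2 by 2.85 ± 0.46 (adjusted p = 0.00219). Their part in the levels of Adgre1, Marco and F13a1 was not tested.

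Large peritoneal macrophages also carry F4/80 and lie next to the site of injection. Of 8 genes that mark them, Itga6 fell, Alox15 rose and 6 did not pass, with a median log2 fold change of 0.76. Both calls were lost when PBS replicate 2 was left out, and likewise when WGP replicate 1 was. Alox15 was at 91.8 CPM in WGP replicate 1 and at 21.4 and 29.2 CPM in the other WGP libraries. Gata6, the factor that defines these cells, was at 0 to 1.42 CPM in 5 libraries and at 6.68 CPM in WGP replicate 2. The sum of 4 mesothelial markers was also highest in that library (54.7 CPM, against 0.95 to 9.26 elsewhere), and its part in the Gata6 level was not tested. The summed level of the 8 genes was 154 to 234 CPM in PBS and 156 to 283 CPM in WGP, so the groups overlapped. F5, coagulation factor V, changed by 1.11 ± 0.35 (SE, edgeR adjusted p = 0.0652) and Prg4, lubricin, by -1.50 ± 0.65 (adjusted p = 0.173). Gata6 and Alox15 were chosen after their values were seen.

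**Figure D5:**
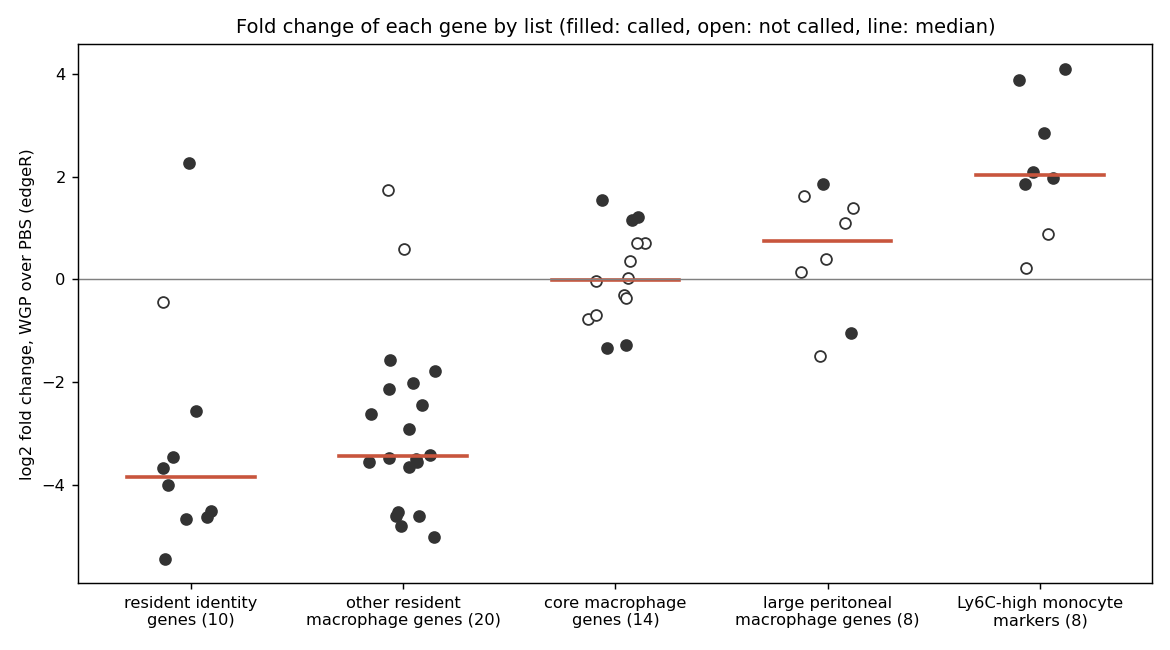
Log2 fold change from PBS to WGP (vertical axis, edgeR) of each gene in 5 lists, with filled points for called genes, open points for genes not called and a line at the list's median. The resident genes and the other resident macrophage genes lie mostly below -1.5, the core macrophage genes spread around 0, and the monocyte markers lie above 0.

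Genes outside the list with the closest pattern were sought by the root mean square distance between centered log2(CPM + 0.5) profiles over the 6 libraries, set against the median profile of the 9 called genes. Of 8558 genes with a mean of at least 10 CPM, the nearest were Tppp (distance 0.092), Reps2 (0.146), Adam33 (0.180), Maoa (0.192) and Timd4 (0.216). For comparison Cbr2 was at 0.154, Folr2 at 0.157 and Marco at 3.01. Tppp, a tubulin-binding protein, was at 22.1, 34.6 and 44.5 CPM in PBS and at 1.55, 2.85 and 2.22 CPM in WGP. Timd4, a receptor for phosphatidylserine on apoptotic cells, was at 131, 281 and 305 CPM in PBS and at 14.9, 30.5 and 16.0 CPM in WGP. These genes were chosen for their likeness in these libraries, and their levels are a description.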

How the data were processed

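Per the labels and the study's methods, polyA RNA of CD45+CD11b+ pancreatic cells was sequenced from 3 PBS and 3 WGP samples. The submitters' processing notes name STAR 2.6, HTSeq 0.10.0, DESeq2 and the builds GRCm38.p6 and mm10. The authors deposited raw counts per Ensembl gene, without normalization. The annotation release, strand setting and handling of duplicate reads are not given in the sources used here. Replicates are the libraries that the labels number within a group.

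Symbols and coordinates came from GENCODE vM21 (21754 of 21780 genes matched) and promoters from RefSeq (GRCm38.p6). Protein-coding genes were kept when their RLE-normalized counts added up to 10 or more across all 6 libraries, and these 14429 genes were tested with edgeR 4.0.16 (quasi-likelihood, TMM) in R 4.3.3. SEs were derived from the log2 fold change and F. For ratios, the count of the reference gene (plus 0.5 where a library was at 0) replaced the library size. The pipeline was tested on simulated data. Alternatives were RLE, upper-quartile and unscaled totals, DESeq2 1.42.0, limma-voom 3.58.1, 3 other filters on low counts, thinning, division by the most frequent low count, the replicate number as a block, a covariate for Y-linked counts, adjusted p alone and leaving out each library. The settings for the pairs of falling genes were added after results were seen.

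Genes to name were the 10 genes, those of the gate, the 3 most abundant of each list and the 5 nearest profiles. Of markers of other cells not all 3 are named, and mostly those called are. Some others were named after their values were seen, as stated beside them. The 10 genes and all lists were chosen with earlier results of these data known.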

Additional observations from a re-analysis of the deposited data

How the results depend on the processing

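All 8 falling genes kept their direction under the alternatives run, but with the covariate for Y-linked counts 7 of the 8 falls, all but Rasgrp3, shrank by more than 1.5 times, and 8 were called lower when any 1 library was left out (8 to 8). Single genes lost a call in 2 cases, Vsig4 with limma-voom and Marco without PBS replicate 2, and Adgre1 turned in sign with the covariate for Y-linked counts (0.21); the cause was not tested. Vsig4 was not tested with at least 10 counts in every library, since 1 library is at 0. The ratios to Adgre1 had no fit with DESeq2 or another scaling. In the other alternatives all 9 were called (9 to 9 with 1 library left out), or 8 of 8 with at least 10 counts in every library. With Lyve1, Folr2, Cd163, Vsig4 or Rasgrp3 as the reference 3 of 9 ratios were called, with Slco2b1 4, with Cbr2 6, with F13a1 8 and with Marco 9. Of other resident genes 17 to 18 were called with 1 library left out, 15 with the covariate for Y-linked counts, and of core genes 5 to 5, or 8 by adjusted p alone. Large peritoneal genes called numbered 2, against 1 with limma-voom, 4 after division by the most frequent low count, 1 with the covariate for Y-linked counts and 0 to 3 with 1 library left out. Pairs of falling genes called with both references numbered 7, 3 to 8 with 1 library left out and 4 with that covariate. Over all genes, 2991 ratios to Adgre1 were called without PBS replicate 1 against 1322, and library totals alone gave 824 lower and 554 higher against 716 and 653, with a median log2 fold change of -0.16.

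The replicate numbers did not pair the libraries: same-numbered PBS and WGP libraries deviated together with correlations of 0.0857, -0.0551 and 0.0811. With the replicate block 1341 genes were called against 1369, with 8 members lower and 9 ratios to Adgre1 changed, 18 other resident, 5 core and 2 large peritoneal genes, and 6 pairs; PBS replicates 1 and 3 correlated best with the WGP library of their own number, and PBS replicate 2 did not.

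Low counts limit Vsig4 in WGP, at 0, 70 and 75 counts in replicates 1, 2 and 3. The most frequent low count of these libraries was 18, 32 and 29, so 70 and 75 counts are only a few times that value. Y-linked counts were in 2 PBS libraries only and were 0 or 1 in the WGP libraries. A difference of sex and the spread between PBS libraries therefore cannot be told apart. Nor can sex be fully told apart from the difference between WGP and PBS.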

Other observations

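Marker lists of other cells gave these counts of genes called, beside the B cell and monocyte markers described above. Of 7 acinar cell markers 6 were lower, with Pnlip, Ctrb1 and Cpa1 the most abundant. Of 7 neutrophil markers 1 (Cxcr2) was higher, at 42.7 ± 13.1 CPM in PBS and 105 ± 2.43 CPM in WGP (SD, n = 3), and S100a9, Csf3r and S100a8 did not pass. Csf3r was under the fold threshold but higher in WGP without overlap between the groups (log2 fold change 0.81, edgeR adjusted p = 0.00925). S100a9 (-0.77) and S100a8 (-0.62) overlapped between the groups. Of 7 dissociation response genes 5 were lower, with a summed level of 17353 to 23639 CPM in PBS and 6739 to 8932 CPM in WGP, and of the 3 most abundant Jun fell by 1.90 on the log2 scale (edgeR adjusted p = 9.07e-05) while Fos (adjusted p = 0.484) and Dusp1 (adjusted p = 0.356) did not pass. Of 5 conventional dendritic cell markers 1, Cd209a, was lower, at 106 ± 28.3 CPM in PBS and 41.5 ± 15.4 CPM in WGP (SD, n = 3). Of 4 T cell markers 1 (Cd2) was lower, while Cd3g, Cd3e and Cd3d did not pass and had positive log2 fold changes (2.56, 3.88 and 2.41), so that the list's median was 2.48. Cd2 was at 173, 46.8 and 30.0 CPM in PBS replicates 1, 2 and 3, the order of the B cell markers, while these Cd3 genes were at 0 to 1.49 CPM in PBS. Which cells carried Cd2 was not tested. Of 4 NK cell markers 1 (Gzma) was lower, with a median of -1.23. Of 5 blood endothelial markers 1 (Kdr) was higher, and the list's sum was 8.94 to 17.6 CPM in PBS and 30.5 to 51.2 CPM in WGP. Vwf (log2 fold change 1.25, without overlap between the groups), Cdh5 (-1.21), Esam (-0.97) and Tie1 (-1.73) did not pass, and the list's median was -0.97. Of 3 tested lymphatic endothelial markers 1 (Pdpn) was higher, and Prox1 (-3.25) did not pass but did not overlap between the groups. Of 3 tested mast cell markers 1 (Kit) was higher, Fcer1a and Tpsb2 were at 0 in every library but PBS replicate 1, and Cpa3 and Mcpt4 were at 0 in every library. Of 5 eosinophil, 5 fibroblast, 4 mesothelial and 3 tested platelet and megakaryocyte markers none was called by edgeR. Cd3d, Cxcr2, Esam and Tie1 were named after their values were seen.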
